A study of Mus musculus with 12 samples.

Results

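The genes described here are 9 muscle genes that mark the working state of the heart: the myosin heavy chain genes Myh6, Myh7 and Myh7b, and Acta1, Ankrd1, Xirp1, Xirp2, Rcan1 and Csrp3, which respond to load or stress in heart muscle. They were found as the non-control probes whose RefSeq accession belongs to one of these genes, which gave 10 probes for 9 genes (Myh6 has 2) of 55681 probes on the array. All 10 probes were well above background on all 12 arrays, so no gene was lost to the filter, and the 9 genes stood among 29795 genes and unnamed features tested.

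The samples were hearts (apex) of 15-week male mice on a C57BL/6J background, each carrying 1 altered Nkx2-5 allele over a normal one. Nkx2-5 is a homeodomain transcription factor of heart development and of the adult heart. The lines were I183M/+ and I183P/+, in which isoleucine at residue 183 is replaced by methionine or proline, delta/+, in which the gene is deleted, and control/+, a knock-in that keeps isoleucine at that residue, so the control animals also carry an engineered allele. Each line had 3 samples, 1 per one-colour (Cy3) Agilent array. Nothing in the labels says whether a sample is 1 animal or a pool, so p-values measure the spread between these samples.

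Adult mouse ventricle runs almost wholly on the fast alpha myosin heavy chain, encoded by Myh6, while the slow beta chain, encoded by Myh7, is used before birth and returns under load, low thyroid hormone or failure. The genes lie head to tail on chromosome 14, and Myh7b is a related slow-tonic myosin gene on chromosome 2. Each of the 3 carries a microRNA in an intron, and in the mouse these microRNAs take part in the control of slow myosin expression. The RefSeq sequences (GRCm38.p6) are given below because they show how closely the myosin genes are tied together. Capitals mark the seed, bases 2 to 8.

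mmu-miR-208a-3p, inside Myh6 (chr14:54949072-54949093, minus strand): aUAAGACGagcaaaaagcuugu
mmu-miR-208b-3p, inside Myh7 (chr14:54975710-54975731, minus strand): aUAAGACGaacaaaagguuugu
mmu-miR-499-5p, inside Myh7b (chr2:155622893-155622913, plus strand): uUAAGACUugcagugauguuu

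The microRNAs of Myh6 and Myh7 share one seed and differ at 3 of 22 bases, and that of Myh7b has a seed of its own that ends in a different base. No probe was assigned to these microRNAs, so their levels are not given here.

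The promoters of the 3 myosin genes are printed next, from 250 bases before to 50 bases after the RefSeq start (GRCm38.p6), since the altered protein is a DNA-binding factor and Myh7 and Myh7b varied together. Capitals mark matches to 5 motifs searched on both strands: the NKX2-5 element TNAAGTG, the TEAD (MCAT) element CATTCC, the GATA motif AGATAA, and the CArG and MEF2 boxes by name. Of 32851 mouse promoter windows of this length, 11.5% hold the NKX2-5 element, 14.7% the MCAT element and 11.2% the GATA motif.

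Myh6 promoter (chr14:54966558-54966857, minus strand): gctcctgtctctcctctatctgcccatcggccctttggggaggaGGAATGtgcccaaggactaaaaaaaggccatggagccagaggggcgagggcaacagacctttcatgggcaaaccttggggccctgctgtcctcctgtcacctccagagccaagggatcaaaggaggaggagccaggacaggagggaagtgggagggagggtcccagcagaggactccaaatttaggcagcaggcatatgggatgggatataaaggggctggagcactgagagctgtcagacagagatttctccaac
Myh7 promoter at its upstream start (chr14:54994577-54994876, minus strand): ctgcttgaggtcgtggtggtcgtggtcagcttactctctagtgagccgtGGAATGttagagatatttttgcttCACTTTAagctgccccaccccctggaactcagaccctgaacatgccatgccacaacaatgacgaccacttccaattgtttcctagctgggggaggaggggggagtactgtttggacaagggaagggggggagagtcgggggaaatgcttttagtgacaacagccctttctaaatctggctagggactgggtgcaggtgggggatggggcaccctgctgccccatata
Myh7b promoter (chr2:155610993-155611292, plus strand): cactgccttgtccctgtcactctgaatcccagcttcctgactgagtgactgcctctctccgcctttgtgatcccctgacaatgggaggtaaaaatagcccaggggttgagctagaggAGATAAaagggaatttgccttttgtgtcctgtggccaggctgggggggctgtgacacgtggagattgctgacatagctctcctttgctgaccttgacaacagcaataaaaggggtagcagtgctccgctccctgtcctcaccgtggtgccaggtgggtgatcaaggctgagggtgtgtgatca

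The Myh7 window holds 1 match to the NKX2-5 element, at position -177, and 1 MCAT match at position -201, both on the opposite strand. The Myh6 window holds 1 MCAT match, at position -206, and the Myh7b window 1 GATA match, at position -133. A second Myh7 start lies 77 bases downstream, and its window holds none of the 5 motifs. A match is a string of letters and says nothing of binding in these hearts.

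All levels below are log2 of the scanner's processed intensity minus the 75th percentile of the same array, so 0 is the level of that percentile and 1 unit is a doubling. Levels are compared between arrays for one probe only. Of the 12 arrays, 8 were on one slide (all control and I183M arrays and I183P replicates 1 and 2) and 4 on another (all delta arrays and I183P replicate 3), with a separate scan for each slide, so delta and control share no slide and their difference cannot be told apart from that of the slides. Control replicate 1 stood apart: 99.1% of its spots were well above background against 51.2 to 75.2% on the other 11 arrays. Its 75th percentile was 1450 against 506.5 to 656.9, and that percentile is subtracted from every level of the array. On this scale 8 of the 9 genes had their lowest level there, and all-array folds against control include those levels. Comparisons with control, which share the control arrays, are therefore given with and without that array. They are also given after normexp background correction with quantile normalisation, which forces all arrays to one distribution. After that step only Myh6 and Myh7b were lowest on control replicate 1. Nkx2-5 itself was at 3.77, 3.78 and 3.92 on the delta arrays, 4.51 to 4.74 on the 6 substitution arrays, and 3.12, 4.45 and 4.56 on the control arrays, so the delta arrays were below every other array except control replicate 1. Ventricular markers such as Myl2 and Myl3 were bright on all arrays, and the summed level of all 11 listed ventricular markers was 11.9 to 12.1 on the mutant arrays, 11.99 and 12.03 on control replicates 2 and 3 and 10.7 on control replicate 1.

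On average Myh7 was higher in delta hearts than in the other 3 lines, by a size that did not pass the test. Its level was 6.30, 6.38 and 8.22 in delta hearts, 5.39, 5.58 and 6.28 in I183P hearts, 6.03, 4.72 and 5.50 in I183M hearts, and 3.30, 4.65 and 5.70 in control hearts. On this scale the 3 delta arrays were above all 9 others. Delta replicates 1 and 2 lay close to I183P replicate 3, which shares their slide, and delta replicate 3 stood far above the rest. Such a full separation of delta from the other 9 arrays was seen in 3.16% of all features. It did not hold after normexp and quantile normalisation, where I183P replicate 3 was at 15.52 and delta replicate 1 at 15.40. The processed intensity of the probe was 48191, 45714 and 168018 in delta hearts and 14287, 15477 and 30609 in control hearts. On I183P replicate 3 it was 51182, and no value was saturated. The summed level of the 8 atrial markers was 6.12 to 8.31 in delta hearts, 5.39 to 7.03 in I183P hearts, 5.29 to 6.39 in I183M hearts and 5.45 to 7.24 in control hearts, and 7.22 on delta replicate 3. In delta hearts 6 of the 8 had log2 folds above 0 against control, with a median of 0.98 against 0.04 over all features, and 0 passed (limma; 1 at an unadjusted p under 0.05, lowest adjusted p = 0.468). With control replicate 1 left out the medians were 1.20 and 0.16, and with normexp and quantile normalisation 1.07 and 0.02. The substitution lines also had raised medians, with 5 of the 8 above 0 in each. The median was 0.69 in I183P hearts and 0.72 in I183M hearts, against -0.03 and 0.11 over all features. Without control replicate 1 the marker medians were 0.64 and 0.88, and with normexp and quantile normalisation 0.69 and 0.82. The part of these markers in the Myh7 and Myh7b levels was not tested. In a piece of whole heart, fewer muscle cells and less RNA per cell cannot be told apart.

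Against control, Myh7 in delta hearts had a log2 fold of 2.42 ± 0.69 (SE), or 5.34-fold, with an adjusted p of 0.384 (limma, Benjamini-Hochberg over all features) and an unadjusted p of 0.0059. In the delta comparison 0.0738% of all features passed the adjusted threshold of 0.05 and 7.35% had an unadjusted p under 0.05. The fold was 1.79 without control replicate 1 (adjusted p = 0.258), 1.79 without delta replicate 3 and 1.94 after normexp and quantile normalisation (adjusted p = 0.248). Blocking on the slide gave 1.62 ± 1.27, and blocking on it without control replicate 1 gave 0.99. Within the second slide, delta exceeded the single I183P array by 0.68.

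In the substitution lines Myh7 did not separate from control. The log2 fold was 1.20 ± 0.69 in I183P hearts (adjusted p = 0.563) and 0.87 ± 0.69 in I183M hearts (adjusted p = 0.879), and without control replicate 1 these were 0.57 and 0.24. The percentage of features past the adjusted threshold was 0.00336% for I183P and 0% for I183M (limma; 5.18% and 1.46% at an unadjusted p under 0.05). Delta exceeded I183M by 1.55 and I183P by 1.22 on the log2 scale, both with an adjusted p of 1, in comparisons where 0% of all features passed (limma; 3.51% and 2.78% at an unadjusted p under 0.05).

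Myh7b followed the same order with a narrower spread. It was at 6.95, 6.89 and 7.37 in delta hearts, 6.43, 6.55 and 6.60 in I183P hearts, 6.41, 6.39 and 6.52 in I183M hearts, and 4.65, 6.28 and 6.23 in control hearts. All 9 mutant arrays were above all 3 control arrays, as in 0.819% of all features, and the 3 delta arrays above all other arrays. Against control the log2 fold was 1.35 ± 0.39 in delta hearts (adjusted p = 0.391), 0.81 ± 0.39 in I183P hearts (adjusted p = 0.563) and 0.72 ± 0.39 in I183M hearts (adjusted p = 0.879). Control replicate 1 carried much of these values: without it the folds were 0.82 ± 0.15, 0.28 ± 0.15 and 0.18 ± 0.15 in the same order, with an adjusted p of 0.0865 for delta.

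After normexp and quantile normalisation the Myh7b fold in delta hearts was 0.79 ± 0.14 (adjusted p = 0.0937), and blocking on the slide then gave 0.53. It passed the threshold in 1 setting only, when limma weighted the arrays by their quality (0.90 ± 0.15, adjusted p = 0.0274), a setting in which 2.18% of all features passed. Delta exceeded the single I183P array of the second slide by 0.47.

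**Figure D1:**
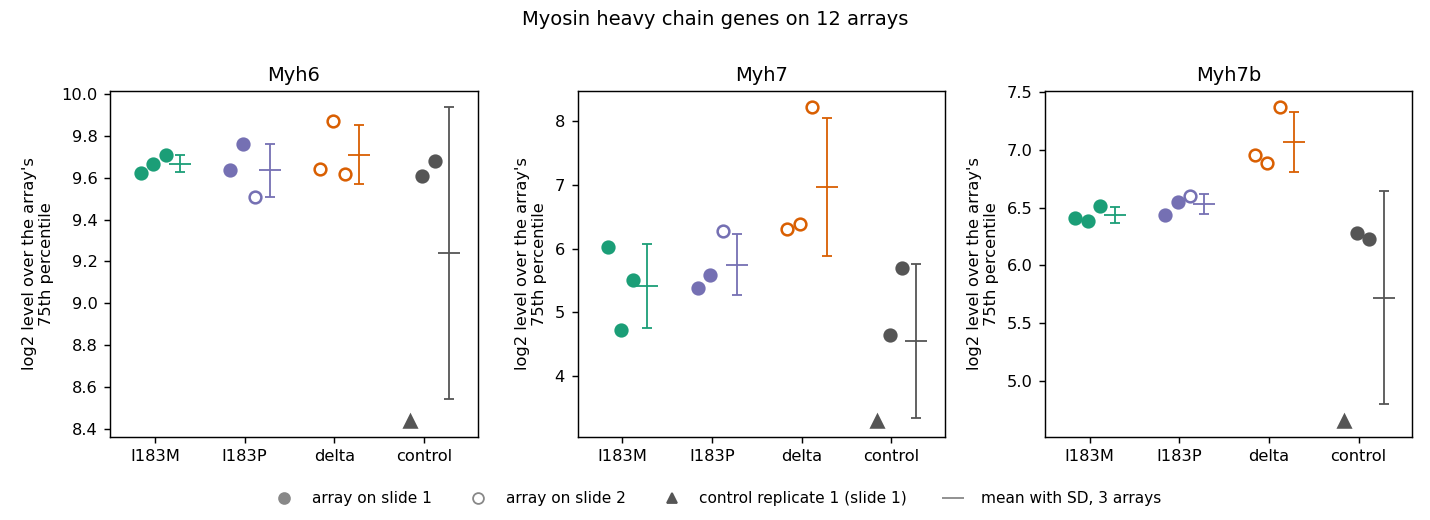
Log2 level over each array's 75th percentile (vertical axes) for Myh6, Myh7 and Myh7b in the I183M, I183P, delta and control lines. Points are arrays, filled for slide 1 and open for slide 2, the triangle is control replicate 1, and bars give the mean with SD of 3 arrays. Myh7 and Myh7b are highest on the open points, Myh7 reaching 8.22 on delta replicate 3, while the brighter Myh6 probe stays between 9.51 and 9.87 on all arrays but control replicate 1.

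By its brighter probe, Myh6 was close to level across the lines. Its brighter probe was at 9.64, 9.87 and 9.62 in delta hearts, 9.64, 9.76 and 9.51 in I183P hearts, 9.63, 9.67 and 9.71 in I183M hearts, and 8.44, 9.61 and 9.68 in control hearts. Apart from control replicate 1 these arrays spanned 0.37, and the lines overlapped. The log2 folds against control were 0.47 in delta hearts, 0.40 in I183P hearts and 0.43 in I183M hearts (adjusted p from 0.563 to 0.879 in limma), and without control replicate 1 they were 0.07, -0.01 and 0.02.

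The second Myh6 probe, assigned to the same accession, was dimmer and did not follow the first. It was at 5.33, 5.57 and 6.41 in delta hearts, 5.74, 5.68 and 4.57 in I183P hearts, 4.80, 5.16 and 5.30 in I183M hearts, and 3.85, 4.91 and 5.10 in control hearts. All delta arrays were above all control arrays, as they were for 10.5% of all features. I183P replicate 3 was the lowest array other than control replicate 1. The log2 fold of the dimmer probe in delta hearts was 1.15 ± 0.45, against 0.47 ± 0.31 for the brighter probe. Neither passed (adjusted p = 0.638 and 0.768 over all probes in limma). Without control replicate 1 the dimmer probe had a mean of 5.77 in delta hearts and 5.01 in control hearts. After normexp and quantile normalisation its fold was 0.65 ± 0.31 (adjusted p = 0.61 in limma), and that of the brighter probe -0.04. The processed intensity of the brighter probe was 429852 to 514989 over the 12 arrays, below the saturation value of 778238, and that of the dimmer one 15592 to 47801. The files used here give no probe sequences or positions, so which transcript forms the probes read was not tested.

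The balance of Myh7 to Myh6 was taken per array as the difference of their log2 levels, which cancels any scaling of a whole array, control replicate 1 included. It is a contrast of 2 probes, so its changes between lines can be read but not its absolute value. The balance was -3.34, -3.49 and -1.40 in delta hearts, -4.25, -4.18 and -3.22 in I183P hearts, -3.59, -4.95 and -4.21 in I183M hearts, and -5.14, -4.95 and -3.98 in control hearts. Delta hearts lay toward Myh7, above all I183M and control arrays, and overlapped with I183P hearts. I183P replicate 3, on the slide of the delta arrays, was above delta replicates 1 and 2, and the 4 arrays of that slide were above the 8 of the other.

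The mean balance was -2.74 ± 1.17 in delta hearts, -3.89 ± 0.57 in I183P hearts, -4.25 ± 0.68 in I183M hearts and -4.69 ± 0.62 in control hearts (SD, n = 3 each). Delta differed from control by 1.95 ± 0.76 (SE), a 3.86-fold shift, with an exact permutation p of 0.1 (two-sided), the smallest that 3 against 3 arrays allow, and 0.3 after adjustment over 6 comparisons. I183P differed from control by 0.80 (exact permutation p = 0.3, adjusted 0.45) and I183M by 0.44 (exact permutation p = 0.5, adjusted 0.5). The differences were 1.72 for delta, 0.58 for I183P and 0.22 for I183M without control replicate 1. Over the 4 lines together an exact permutation test over 15400 arrangements gave p = 0.0553, and 0.0299 after normexp and quantile normalisation. With the mean of both Myh6 probes it gave 0.152, and with the dimmer one in place of the brighter one 0.341. On the normexp and quantile scale the brighter Myh6 probe spanned only 0.22 over all arrays, against 3.48 for Myh7. Its value was identical on some arrays, such as 18.84 on both I183M replicate 3 and I183P replicate 1. The exact permutation p of 0.0299 therefore reads almost only the Myh7 level and cannot speak for a balance of both genes.

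The shift in delta hearts was 1.28 without delta replicate 3 and 0.95 with the slide as a block. Within the second slide delta exceeded the single I183P array by 0.48, with delta replicates 1 and 2 below that array. Within the first slide I183P exceeded control by 0.47 and I183M exceeded control by 0.44. The last 2 differences are smaller than the SD of the control arrays.

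**Figure D2:**
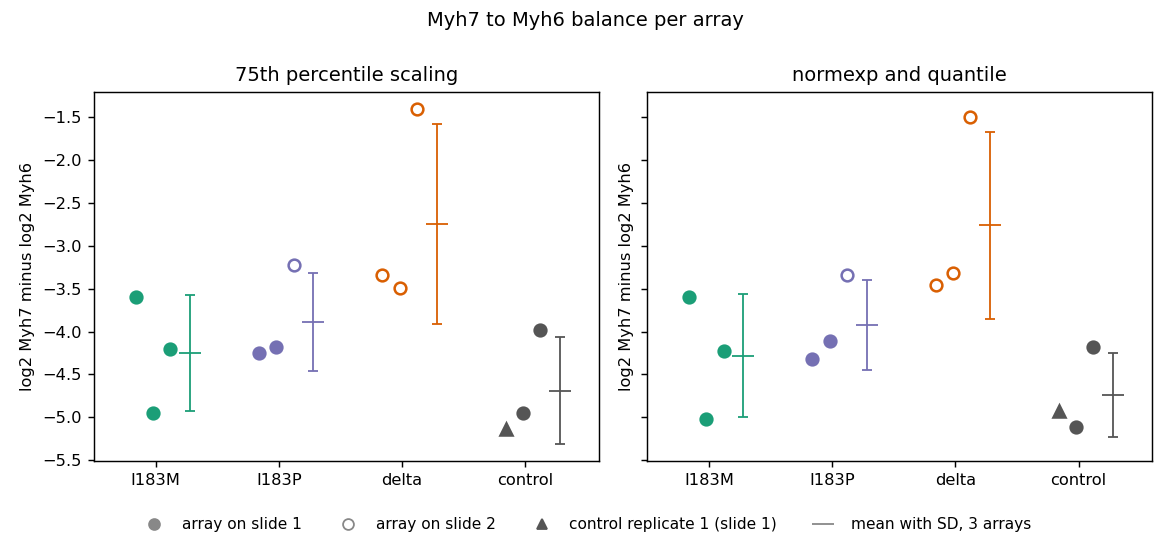
Difference of the log2 levels of Myh7 and Myh6 on each array (vertical axis) in the I183M, I183P, delta and control lines, after scaling to the 75th percentile (left) and after normexp and quantile normalisation (right). Points are arrays, filled for slide 1 and open for slide 2, and bars give the mean with SD of 3 arrays. The open points lie highest, with delta replicate 3 at -1.40 on the left, and I183P replicate 3 at -3.22 lies beside the other delta arrays.

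Acta1 encodes skeletal alpha-actin, the fetal actin that hypertrophied hearts express again. It was at 5.64, 5.06 and 6.29 in delta hearts, 5.35, 5.01 and 5.92 in I183P hearts, 5.69, 3.93 and 4.82 in I183M hearts, and 4.97, 6.54 and 5.52 in control hearts. The highest array was control replicate 2 and the lowest I183M replicate 2, and the lines overlapped. Its log2 fold against control was -0.01 ± 0.55 in delta hearts (adjusted p = 0.993), -0.25 ± 0.55 in I183P hearts (0.767) and -0.86 ± 0.55 in I183M hearts (0.879). The delta value was -0.37 without control replicate 1, -0.53 after normexp and quantile normalisation, -0.76 with a slide block and 0.42 without control replicate 2. Without control replicate 1 the I183M value was -1.22 ± 0.58 (adjusted p = 0.725), and after normexp and quantile normalisation it was -1.28 ± 0.48 (adjusted p = 0.821).

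Ankrd1 encodes a titin-associated ankyrin repeat protein that is induced by stretch. It was at 6.68, 6.45 and 7.90 in delta hearts, 6.40, 6.57 and 6.84 in I183P hearts, 6.57, 6.39 and 6.12 in I183M hearts, and 5.31, 7.03 and 6.43 in control hearts. Delta replicate 3 was the highest array and the other delta arrays lay among those of the other lines. The log2 fold in delta hearts was 0.76 ± 0.47 (adjusted p = 0.704), and 0.28 without control replicate 1. It was 0.34 in I183P hearts and 0.11 in I183M hearts, and both turned negative without control replicate 1, at -0.13 and -0.37.

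Csrp3 encodes the Z-disc LIM protein MLP, a link in stretch sensing. It was at 7.69, 7.72 and 8.08 in delta hearts, 7.55, 7.67 and 7.62 in I183P hearts, 7.69, 7.67 and 7.73 in I183M hearts, and 6.33, 7.68 and 7.64 in control hearts. Delta replicate 3 was again the highest, and the other 10 arrays apart from control replicate 1 lay between 7.55 and 7.73. Its log2 fold in delta hearts was 0.61 ± 0.33 (adjusted p = 0.704), and 0.17 without control replicate 1.

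Xirp1 and Xirp2 encode Xin repeat proteins that bind actin at the intercalated disc. Xirp1 was at 3.11, 3.24 and 3.80 in delta hearts, 3.04, 3.09 and 3.04 in I183P hearts, 3.57, 3.11 and 3.08 in I183M hearts, and 2.07, 3.28 and 3.55 in control hearts. Xirp2 was at 3.99, 3.86 and 4.22 in delta hearts, 3.78, 3.68 and 4.004 in I183P hearts, 3.79, 3.81 and 3.81 in I183M hearts, and 2.54, 3.87 and 3.69 in control hearts. Both were highest on delta replicate 3, and without control replicate 1 the Xirp1 and Rcan1 levels of I183P hearts lay below those of control hearts, as did those of 15.9% of all features. The Xirp1 fold in delta hearts was 0.42 ± 0.37 on the log2 scale (adjusted p = 0.751) and -0.03 without control replicate 1. The Xirp2 fold was 0.65 ± 0.32 (adjusted p = 0.704) and 0.24 without that array.

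Rcan1 encodes a calcineurin inhibitor whose shorter transcript is itself a calcineurin target, which makes it a gauge of that hypertrophic pathway. It was at 2.61, 2.15 and 2.69 in delta hearts, 2.23, 2.14 and 2.49 in I183P hearts, 3.29, 2.05 and 2.08 in I183M hearts, and 1.32, 2.80 and 2.61 in control hearts. The highest array was I183M replicate 1, and with all arrays the levels of each mutant line overlapped with those of control. All 3 I183P arrays were below the control arrays once control replicate 1 was left out, as they were for 15.9% of all features. After normexp and quantile normalisation they were below all 3 control arrays, for Xirp1 as well as Rcan1. The share of all features that did so on that scale is not given here. The log2 folds were 0.24 in delta hearts, 0.04 in I183P hearts and 0.23 in I183M hearts (adjusted p from 0.883 to 0.953 in limma), and without control replicate 1 all 3 were below 0, at -0.22, -0.42 and -0.23.

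**Figure D3:**
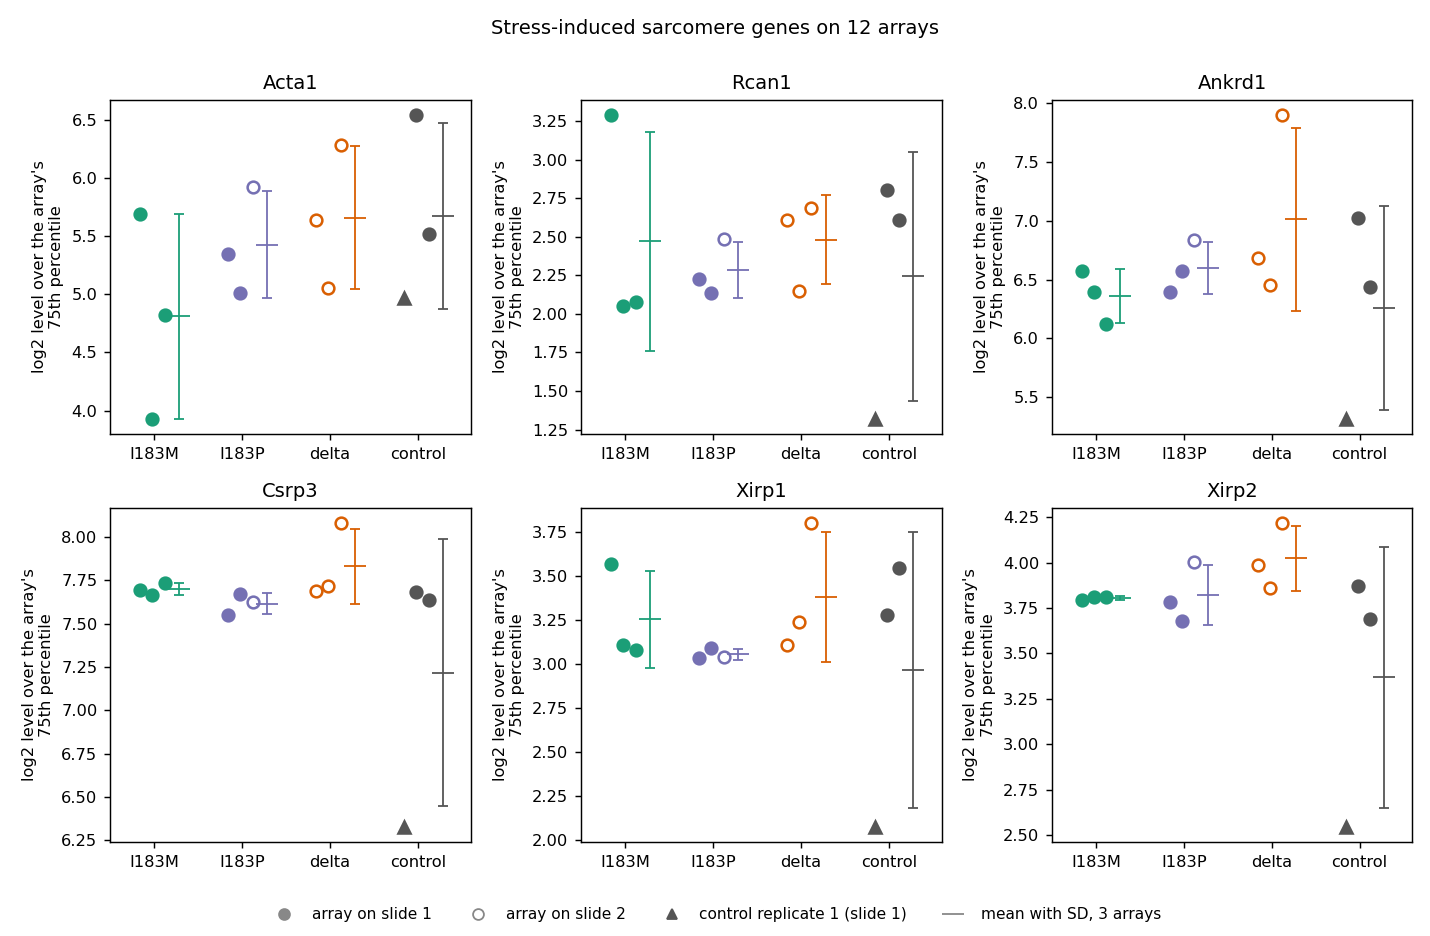
Log2 level over each array's 75th percentile (vertical axes) for Acta1, Rcan1, Ankrd1, Csrp3, Xirp1 and Xirp2 in the I183M, I183P, delta and control lines. Points are arrays, filled for slide 1 and open for slide 2, the triangle is control replicate 1, and bars give the mean with SD of 3 arrays. Delta replicate 3 is the highest array for Ankrd1 (7.90), Csrp3 (8.08), Xirp1 (3.80) and Xirp2 (4.22), and Acta1 is lowest on I183M replicate 2 (3.93).

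Over the 9 genes, 0 passed in any of the 6 comparisons (limma). At an unadjusted p under 0.05, 2 genes passed in delta against control, Myh7 and Myh7b, and 1 in delta against I183M, Myh7. In delta hearts 8 of 9 folds against control were above 0, with a median of 0.61, against a median of 0.04 and 52.2% above 0 over all features. Without control replicate 1, 6 of 9 were above 0 with a median of 0.17, against 66.7% above 0 and a median of 0.16 over all features. After normexp and quantile normalisation 5 of 9 were, with a median of 0.08, against 52.6% and a median of 0.02 over all features. The delta levels did not overlap with control for 3 genes, Myh7, Myh7b and Csrp3, in a comparison where 10.5% of all features were higher without overlap. Csrp3 overlapped after normexp and quantile normalisation, and 10.1% of all features were higher without overlap.

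I183P hearts had 8 of 9 folds above 0 against control, where 48.8% of all features were, and 3 of 9 without control replicate 1, where 51.9% were. I183M hearts had 8 of 9, where 56.7% of all features were, and 5 of 9 without that array, where 63.8% were. In each substitution line only Myh7b was above control without overlap, where 7.55% of all features were for I183P and 2.36% for I183M. A test over the 4 lines (moderated F in limma) gave adjusted p from 0.896 to 0.955 for the 9 genes, where 2 of 29795 features passed. With array weights Myh7b alone of the 9 had an adjusted p under 0.05 in that test, at 0.046. In that setting 967 of 29795 features passed.

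**Figure D4:**
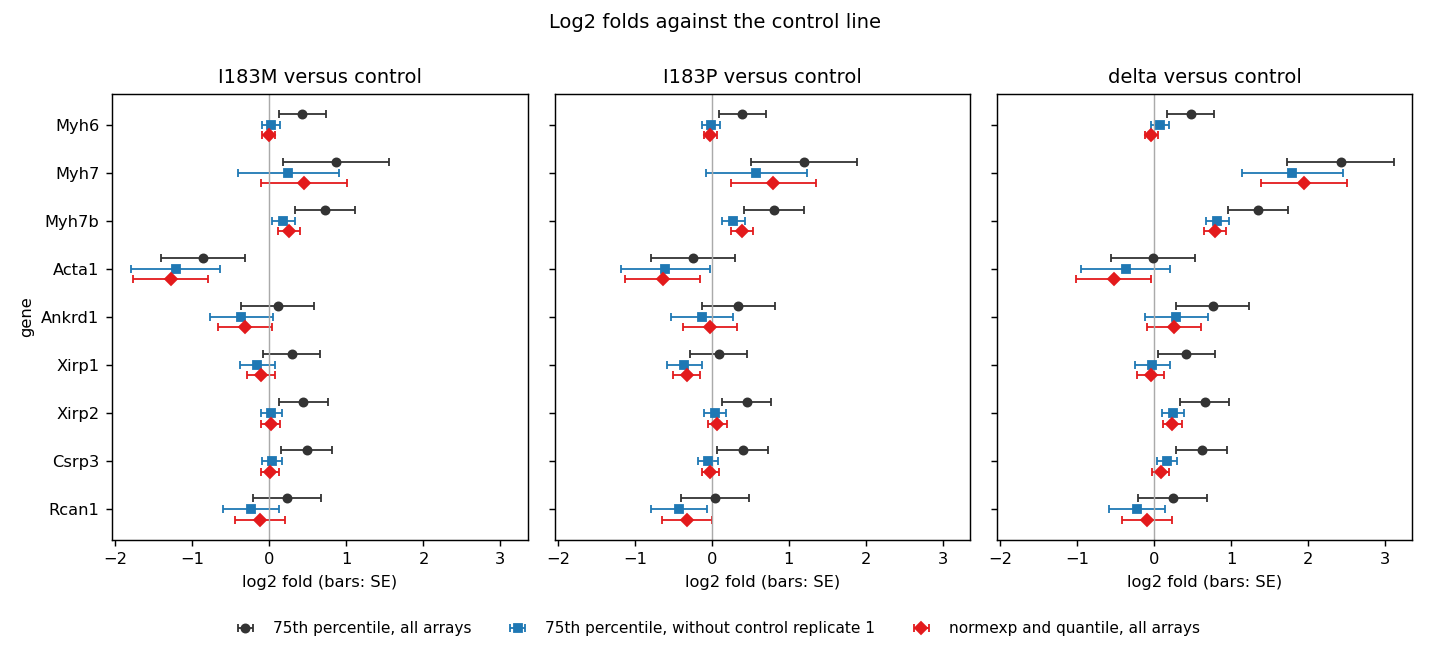
Log2 folds of the 9 genes against control (horizontal axes; bars are SE) in I183M, I183P and delta hearts, under 75th percentile scaling with all arrays, the same without control replicate 1, and normexp with quantile normalisation. Myh7 and Myh7b stay above 0 in delta hearts under all 3, at 1.79 to 2.42 and 0.79 to 1.35, while the folds of all 9 genes are lower once control replicate 1 is left out.

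One array carried much of what the genes had in common. Delta replicate 3 was the highest of the 12 arrays for 6 of 9 genes (Myh7, Myh7b, Ankrd1, Xirp1, Xirp2 and Csrp3), whereas it was the highest for 15.1% of all features. After normexp and quantile normalisation these were 6 of 9 and 14%. On that array the summed level of the 9 skeletal muscle markers tested was 9.17 against at most 9.10 on the other 11. Another 6 of the 15 listed (Myh1, Myh2, Actn3, Myog, Myod1 and Mylpf) were well above background on fewer than 3 arrays. The brightest of those tested, Myh8, was at 8.86 on delta replicate 3 and weighs most in the sum. Myh8, Mybpc1 (-1.43) and Mybpc2 (3.51) were highest on that array, but Ckm was at 6.40 against 6.93 on control replicate 2. Tnnc2 was at -1.30 on delta replicate 3, the lowest of the delta arrays. The red blood cell markers summed to 9.96 there against at most 9.83 elsewhere, and the macrophage markers to 5.28 against at most 5.26, though neither sum was the highest there after normexp and quantile normalisation. The sum of the smooth muscle and pericyte markers was 6.78 there, the lowest of the delta arrays. The part of these markers in the levels was not tested.

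The slide separated 2 of the 9 genes. Myh7 and Myh7b were higher on the 4 arrays of the second slide than on the 8 of the first, as were 2.61% of all features, and this held after normexp and quantile normalisation (2.94%). Across the 11 arrays without control replicate 1 the levels of Myh7 and Myh7b had a Pearson correlation of 0.877, and Myh7 and Acta1 one of 0.411. The brighter Myh6 probe and Myh7 had a correlation of -0.05. These arrays share slides and lines, so the correlations are a description.

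The genes whose levels ran closest to those of a member over the same 11 arrays were Tmem202 (r = 0.943), Sctr (0.942) and Nfatc4 (0.925) for Myh7. Such genes were picked as the highest values among all genes with a symbol. After normexp and quantile normalisation the values for Myh7 were 0.608, 0.796 and 0.619. For Myh7b the closest genes were Zfp790 (0.96), Hes2 (0.955) and Kifap3 (0.951), at 0.877, 0.81 and 0.92 on that scale. For Acta1 they were Fam160a2 (0.961), Pdlim7 (0.924) and Il17ra (0.918), and after normexp and quantile normalisation the last 2 fell to 0.17 and 0.161. For Csrp3 they were Myl12a (0.957), Sympk (0.94) and Serp1 (0.933), at 0.91, 0.71 and 0.407 after normexp and quantile normalisation. The leading genes were Pebp1 for Myh6 (0.863), Fads3 for Ankrd1 (0.935), Cant1 for Xirp1 (0.953), Gm4788 for Xirp2 (0.936) and Plat for Rcan1 (0.926). Pebp1 and Cant1 fell to -0.131 and -0.0178 after normexp and quantile normalisation, while Fads3, Gm4788 and Plat were at 0.881, 0.719 and 0.859.

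The partners of these genes were read in 7 lists. Among the other myosin heavy chain and myosin-binding genes 11 of 13 were tested, among the light chains 9 of 10, and among the thin filament genes 14 of 14. Among the Z-disc and intercalated disc partners 19 of 20 were tested, among the calcineurin and NFAT genes 12 of 12, among the regulators of the myosin switch 18 of 20, and among the other fetal and stress genes 23 of 25. In these lists 0 genes rose and 0 fell past the adjusted threshold in any mutant line against control (limma), with or without control replicate 1. Without that array 0.171% of all features passed in delta hearts, 0.0168% in I183P hearts and 0% in I183M hearts. After normexp and quantile normalisation 1 listed gene fell in delta hearts, Nkx2-5 itself (log2 fold -0.73, adjusted p = 0.0312), where 0.0772% of all features passed. At an unadjusted p under 0.05 with all arrays, delta hearts held 2, 1, 0, 1, 1, 0 and 2 of these genes in the same order. That is 7 of 106 list entries or 6.6%, against 7.35% of all features. Actc1, Acta2 and Tnni1 stood in both the thin filament and the fetal and stress lists, so the entries hold repeats. With control replicate 1 left out the count was 17 of 106 or 16%, against 14.9% of all features. After normexp and quantile normalisation it was 19 of 106 or 17.9%, and the share of all features on that scale is not given here.

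Myl1 encodes a light chain of fast skeletal muscle. It was at 6.00, 5.63 and 6.39 in delta hearts, 5.93, 5.79 and 6.74 in I183P hearts, 5.83, 5.93 and 5.69 in I183M hearts, and 2.80, 4.84 and 4.16 in control hearts. All 9 mutant arrays were above all control arrays, again a separation seen in 0.819% of all features, and the log2 folds were 2.07 in delta hearts, 2.22 in I183P hearts and 1.88 in I183M hearts (adjusted p from 0.278 to 0.879 in limma). Without control replicate 1 these were 1.51, 1.65 and 1.31.

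Of the other partners, Myot, which encodes the Z-disc protein myotilin, had a log2 fold of 1.36 in delta hearts (adjusted p = 0.428). Mybpc2, which encodes the fast skeletal myosin-binding protein C, had one of 1.23 (0.477), and Nfatc4, a calcineurin-activated factor, one of 0.91 (0.483). Without control replicate 1 these were 1.02, 1.02 and 0.53. Kcnip2, a subunit of the transient outward potassium channel that falls in failing hearts, had a fold of -1.13 in I183P hearts (adjusted p = 0.557). Nppa, the atrial natriuretic peptide gene, had one of 0.40 in delta hearts (adjusted p = 0.846 in limma) and -1.54 in I183M hearts (0.879). The Nppa values were -0.14 and -2.08 without control replicate 1. Thrb, the beta thyroid hormone receptor, and Tead1, which binds MCAT elements, had folds of 0.42 and 0.25 in delta hearts, and 0.01 and -0.10 without control replicate 1.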

How the data were processed

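Hearts of 4 lines were profiled on 12 one-colour arrays. Spot intensities are the processed signals deposited from Agilent Feature Extraction 11.0.1.1 (protocol GE1_1100_Jul11), per the file headers, already corrected for background. The authors' deposited table holds log2 values with array medians of 6.89 to 6.94; the submitters' processing notes name limma, and the steps behind the table are not given in the sources used here. No spot was saturated, and the number of arrays limits the precision.

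Control and outlier spots were removed, spots of a probe averaged, log2 taken and the array's 75th percentile subtracted. Accessions were matched to the RefSeq table of GRCm38.p6 (27235 of 55681 probes with 1 symbol), and 96 probes missing on some array were dropped. Probes well above background on at least 3 arrays (41591) were kept, and a gene was read from its brightest probe (the 2 Myh6 probes disagree). Differences were fitted with limma 3.58.1 (R 4.3.3) over all 12 arrays, with Benjamini-Hochberg adjustment over 29795 features at 0.05. The files hold no mean signal, so normexp (offset 50) used the median signal. The fitting code was tested on simulated data. Quantile normalisation, the deposited values, filters, blocks, array weights and single arrays left out were alternatives.

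Named were the 9 members, up to 3 genes of each partner list by smallest unadjusted p, up to 2 markers of each cell type by level, and the 3 genes closest to each member; only some are printed. Members and lists were chosen with earlier results of these data known. Same-numbered I183M and control arrays deviated together, with correlations of 0.79, 0.56 and 0.50. After normexp and quantile normalisation these were 0.53, 0.43 and 0.31. Replicate 1 had the largest share of spots well above background in both lines, 72.8% for I183M and 99.1% for control. The correlations cannot tell that apart from a pairing of the numbers, and no label gives one. Same-numbered arrays of the other lines did not deviate together in this way.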

Additional observations from a re-analysis of the deposited data

How the results depend on the processing

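No member passed the threshold in any of the 1125 values recomputed under 29 alternatives, except Myh7b in delta against control with array weights; 172 values changed sign and 20 of 54 results never did. Myh7 in delta against control ranged from 0.99 to 2.99 and Myh7b from 0.53 to 1.63. Alternatives joining 2 changes and the dimmer Myh6 probe were chosen after seeing the data. Myh6 reversed in I183P against control, at -0.11 with quantile normalisation and -0.081 with normexp and quantile without control replicate 1, and in delta against control at -0.10 with normexp and quantile without control replicate 1. Myh6 in I183M against control also changed sign, at -0.10, -0.07 and -0.01 with quantile, normexp and quantile without control replicate 1, and normexp and quantile. The replicate block changed no call of a member: Myh7 in delta against control stayed at 2.42, and the block gave 7 features past the threshold. The 4-line exact permutation p of the balance was 0.0299 with normexp and quantile, 0.0402 with quantile and 0.0299 with the deposited values, against 0.0553 as reported, 0.152 with probe means and 0.341 with the dimmer Myh6 probe. In the settings with a p under 0.05 the brighter Myh6 probe hardly varied between arrays, so those values rest almost wholly on Myh7.

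Over all features, delta against control had 22 past the threshold. It had 11 with quantile, 13 unfiltered, 10 with probe means, 0 with the slide block, 7 with the replicate block, 650 with array weights, 0 with those 2 lines alone, and 0 to 51 with single arrays left out (51 without control replicate 1, 1 without control replicate 2, 5 without delta replicate 2, 2 without delta replicate 3, and 0 without control replicate 3 or delta replicate 1). With normexp and quantile it had 273 without control replicate 1, 0 with the slide block and 14 with the replicate block. Under 75th percentile scaling, the slide block without control replicate 1 gave 0. I183P against control had 1, and 3 with normexp and quantile, 2 with the deposited values, 7 with detection on all arrays of a line, 0 with the slide block, 1063 with array weights, 0 within the first slide, 0 with those lines alone and 0 to 5 with single arrays left out (5 without control replicate 1, 2 without control replicate 2, and 0 without any other). It had 11 with normexp and quantile without control replicate 1, 6 with normexp, quantile and slide block, and 7 under 75th percentile scaling with the slide block and without control replicate 1. I183M against control had 0, and 2 with normexp and quantile, 1 with quantile, 2 with the deposited values, 1 with detection on all arrays of a line, and 402 with array weights. After normexp and quantile it had 10 without control replicate 1, 2 with the slide block and 1 with the replicate block. Delta against I183M had 0, and 5, 4, 5, 11 and 69 with normexp and quantile, quantile, deposited values, detection on all arrays of a line and array weights. After normexp and quantile it had 90 without control replicate 1 and 4 with the replicate block. Delta against I183P had 0, and 4, 2, 3 and 10 with normexp and quantile, quantile, deposited values and array weights, and 10 without control replicate 1 after normexp and quantile. I183P against I183M had 0, and 229 with array weights and 1 with normexp, quantile and slide block. With array weights 1 member passed over the 4 lines, as did 967 of 29795 features. The cause of these changes was not tested.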
